A study of Mus musculus with 8 samples.

Results

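The genes described are 10 dual-specificity phosphatases (DUSPs): Dusp1, Dusp2, Dusp3, Dusp4, Dusp5, Dusp6, Dusp7, Dusp10, Dusp16 and Dusp22. They were chosen by gene symbol, and all 10 were present among the 38392 genes of the expression table that compares eosinophils of the small intestine with those of the bone marrow. RNA was sequenced from 4 bone marrow and 4 small intestine libraries of wildtype C57/BL6 mice. The study describes these mice as female, and they carried no transgene and received no agent. The labels give no single age, and the methods give only an age range for all experiments. Cells were sorted from bone marrow as CD11b+Ly6G-Ly6C-SiglecF+SSChi and from the intestine as CD11b+MHC-II-SiglecF+SSChi. The intestinal cells had first been released by warm enzymatic digestion and enriched on beads against CD11b, whereas marrow was flushed and sorted without either step, so that tissue and handling cannot be told apart. The libraries held 11508002 to 21289164 reads in genes, and levels are given as normalised counts, which are reads divided by the size factor of their library.

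DUSPs are the phosphatases that switch mitogen-activated protein (MAP) kinases off. ERK, JNK and p38 kinases become active when an upstream kinase phosphorylates a threonine and a tyrosine in their activation loop, and a DUSP removes these phosphates. Transcription of many DUSP genes is itself switched on by MAP kinase signalling, so that the phosphatase closes a negative feedback loop, and the abundance of an inducible DUSP transcript is often read as a trace of recent signalling. In eosinophils, MAP kinases act downstream of the receptors for IL-5, IL-33 and eotaxins. The family is grouped by location and preferred substrate into inducible nuclear enzymes (Dusp1, Dusp2, Dusp4 and Dusp5), cytoplasmic ERK phosphatases (Dusp6 and Dusp7), enzymes that favour JNK and p38 (Dusp10 and Dusp16), and small atypical enzymes without a kinase-binding domain (Dusp3 and Dusp22).

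The labelled cell type was checked first. Markers of neutrophil precursors, such as the granule enzymes Mpo and Elane, summed to 465989 to 601345 normalised counts in the 4 bone marrow libraries and to 692 to 996 in the 4 small intestine libraries, and all 9 of 9 were lower in small intestine. The 7 eosinophil markers summed to 2465 to 3744 in bone marrow against 33399.6 to 46088 in small intestine. Of these, the receptors Siglecf, Ccr3 and Il5ra and the lipoxygenase Alox15 were higher in small intestine, and the granule genes Epx, Prg2 and Prg3 were higher in bone marrow. The libraries labelled bone marrow eosinophils thus carried far more transcript of neutrophil precursor markers than of eosinophil markers, and since this held for all 4 of them, no comparison without such libraries can be made. In the small intestine, 9 of 9 epithelial markers and 8 of 10 macrophage and dendritic cell markers were higher than in bone marrow. Epithelial markers, led by Lgals4, summed to 187 to 203 normalised counts in bone marrow against 2776 to 18269.5 in small intestine. Macrophage and dendritic cell markers, led by Cd74, summed to 603 to 789 and 2876 to 10519, and both lists were highest in the library SI_6. All 8 of 8 fibroblast and endothelial markers were higher as well, with sums of 387 to 476 in bone marrow against 7929 to 9796 in small intestine, most of it Pecam1, which leukocytes also express. Of 8 lymphoid markers, 2 were higher and 2 lower in small intestine, with sums of 5703 to 7720.0 (led by Nkg7) and 469 to 2654 (led by Jchain). Of 6 mast cell and basophil markers, 0 were higher and 3 lower, with sums of 2626 to 3625 and 550.1 to 1854, led by Kit in both, and Mcpt4 was at 0 in bone marrow. In such bulk samples, fewer cells of a type and less RNA per cell cannot be told apart, and the part of other cells in the differences described here was not tested.

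In the intestinal libraries, 8 of the 10 phosphatases were higher than in bone marrow, Dusp7 was lower, and Dusp22 did not pass the test. The differences were of unlike size. Dusp1, Dusp5 and Dusp16 were 245 to 384 times as abundant in small intestine by the ratio of means, whereas Dusp2, Dusp3, Dusp4, Dusp6 and Dusp10 were 4.41 to 7.28 times as abundant. Over the whole table, limma called 22.0% of genes higher in small intestine and 12.9% lower at an adjusted p below 0.05. Of all calls, 63.2% were higher in small intestine, and 45.8% after quantile normalisation. The median difference was 2.49 on the deposited log2 scale for the members and 0.37 for all genes, a shift that quantile normalisation moved to -0.03. In 9 of the 10 members every small intestine library lay above every bone marrow library, as it did for 20.3% of all genes, and in 1 member, Dusp7, every small intestine library lay below, as for 13.9% of all genes. Summed over the 10 genes, normalised counts were 589 ± 73.8 per bone marrow library and 46281 ± 8725 per small intestine library (mean ± SD, n = 4 each).

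**Figure D1:**
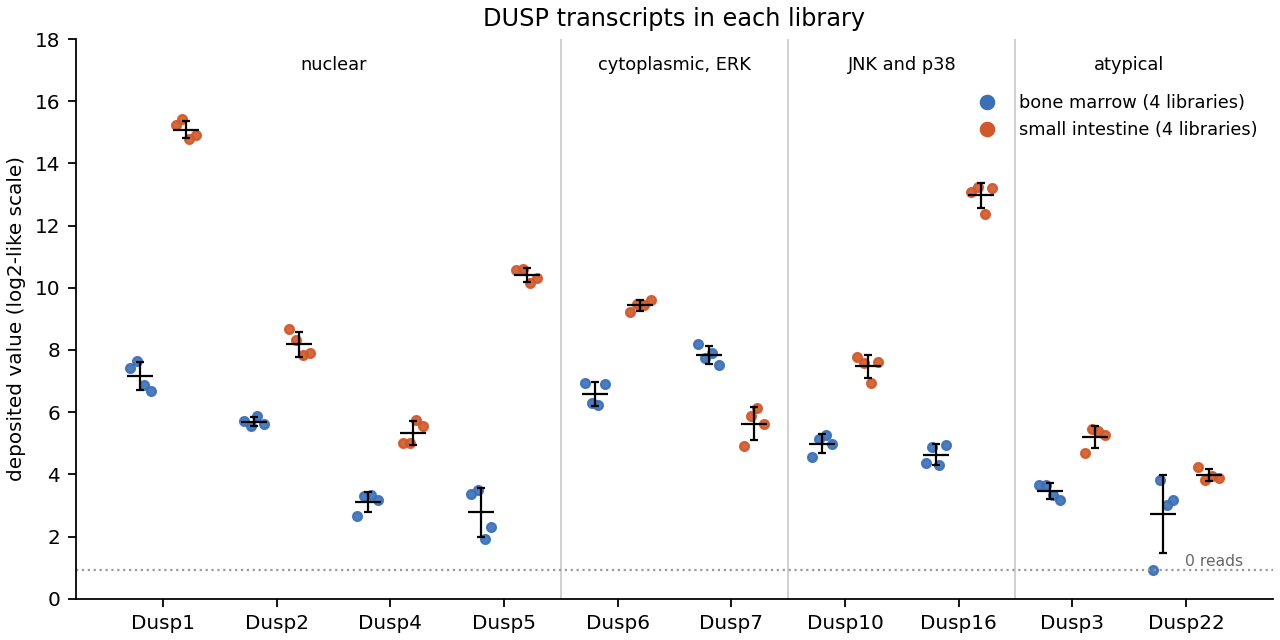
Deposited values of the 10 phosphatase genes on their log2-like scale, with a point for each of the 4 bone marrow (blue) and 4 small intestine (orange) libraries, black bars for the mean ± SD of each tissue and a dotted line at the value of 0 reads. Dusp1 lies between 6.69 and 7.64 in bone marrow and between 14.79 and 15.42 in small intestine, and Dusp7 is the member that is lower in small intestine.

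The largest differences were those of Dusp1, Dusp5 and Dusp16. The DNA upstream of these genes is shown first, with that of Dusp7, the member that fell. The genes shown were thus chosen by their difference. The sequences are the bases from -200 to -51 before the RefSeq transcription start in the mouse build GRCm38.p6, printed 5′ to 3′ on the strand of the gene. They lie at chr17:26508523-26508672 (minus strand) for Dusp1, chr19:53528945-53529094 (plus strand) for Dusp5, chr6:134792679-134792828 (minus strand) for Dusp16 and chr9:106368432-106368581 (plus strand) for Dusp7. The Dusp1 stretch lies inside the annotated interval of that gene (chr17:26505590-26562128), so the RefSeq start is not the outermost annotated start. Capitals mark the cAMP response element (CRE, TGACGTCA), its core TGACG on either strand, and the CArG box, the binding motif of serum response factor. Other motifs that were searched, named below, are not marked.

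Dusp1: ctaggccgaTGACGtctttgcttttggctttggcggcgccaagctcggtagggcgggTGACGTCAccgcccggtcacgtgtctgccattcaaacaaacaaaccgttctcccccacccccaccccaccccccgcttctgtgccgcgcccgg
Dusp5: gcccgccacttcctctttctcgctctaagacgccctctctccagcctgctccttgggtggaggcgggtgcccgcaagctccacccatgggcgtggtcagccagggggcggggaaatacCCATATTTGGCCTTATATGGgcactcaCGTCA
Dusp16: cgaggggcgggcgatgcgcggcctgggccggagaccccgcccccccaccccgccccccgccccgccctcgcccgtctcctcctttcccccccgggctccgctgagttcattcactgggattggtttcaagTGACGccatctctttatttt
Dusp7: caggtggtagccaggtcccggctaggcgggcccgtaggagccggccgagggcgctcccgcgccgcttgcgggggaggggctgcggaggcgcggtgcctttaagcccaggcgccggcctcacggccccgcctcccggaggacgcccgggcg

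The Dusp1 sequence holds a complete CRE at -143 to -136 and a further CRE core at -191 to -187. In Dusp5, a pair of CArG boxes stand directly beside each other, at -82 to -73 and -72 to -63, followed by a CRE core at -55 to -51. Dusp16 has a CRE core at -70 to -66, and the Dusp7 sequence has no capitals. The same stretches of Dusp2, Dusp3, Dusp6 and Dusp10, which were higher in small intestine, have none either, nor has that of Dusp22. All motifs were searched on both strands in the 250 bases upstream of the start, where 9 of the 10 members had an entry. The CRE core was found in 3 of 9 member promoters and in 17.8% of 32851 promoters of the table, and the complete CRE, which contains the core, in 1 of 9 and 1.55%. A CArG box occurred in 1 of 9 and 1.47%. The EGR site GCGNGGGCG occurred in 3 of 9 (Dusp2, Dusp16 and Dusp22) and 4.70%. The core GCGTG bound by the aryl hydrocarbon receptor occurred in 5 of 9 (Dusp2, Dusp3, Dusp5, Dusp7 and Dusp22) and 28.2%. These motifs were not capitalised, so the printed Dusp16 stretch holds an unmarked EGR site (-138 to -130). Likewise, the printed Dusp5 stretch holds an unmarked GCGTG core (-111 to -107). The GCGTG core of Dusp7, at -5 to -1, lies outside its printed stretch. The AP-1 site TGANTCA was found in 0 of 9 and 6.75%, and an NF-kappaB site in 1 of 9 (Dusp22) and 3.90%. These matches describe letters and not occupied sites.

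Among the inducible nuclear enzymes, Dusp1 (ENSMUSG00000024190, chr17:26505590-26562128, minus strand) encodes the phosphatase that acts on p38, JNK and ERK and is a textbook immediate early gene. Its normalised counts were 168 in BM_1, 195 in BM_3, 114 in BM_4 and 99.5 in BM_5 for bone marrow, and 28342 in SI_6, 31115 in SI_7, 38138 in SI_10 and 43804 in SI_11 for small intestine. The groups did not overlap, and within each tissue the highest library was less than 2 times the lowest. The mean was 144 ± 44.9 in bone marrow against 35349.9 ± 6983 in small intestine (SD, n = 4 each), a ratio of 245. On the deposited log2 scale the difference was 7.93 ± 0.27 (SE), with a limma adjusted p of 5.98e-07. By this difference Dusp1 ranked 73 of 38392 genes.

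The ERK-selective nuclear phosphatase Dusp5 (ENSMUSG00000034765, chr19:53529109-53542431, plus strand) has been described as a brake on ERK in eosinophils. It was close to undetected in bone marrow, where it had 9 reads in BM_1, 12 in BM_3, 1 in BM_4 and 2 in BM_5. These correspond to normalised counts of 6.90 in BM_1, 7.83 in BM_3, 0.957 in BM_4 and 1.86 in BM_5, and the small intestine libraries had 1125 in SI_6, 1283 in SI_7, 1517 in SI_10 and 1536 in SI_11. The means were 4.38 ± 3.48 and 1365 ± 197, and the difference of 7.63 ± 0.38 on the log2 scale had a limma adjusted p of 2.67e-06. The intestinal libraries were close to each other, and the bone marrow libraries fell into a higher pair (BM_1 and BM_3) and a lower pair (BM_4 and BM_5) that rest on few reads. Exons of Dusp5 share 547 bases with the antisense gene AC137853.2, and the strand setting of the counting is not given in the sources used here, so reads of this gene may be included.

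Dusp2 (ENSMUSG00000027368, chr2:127336159-127338376, plus strand) encodes a nuclear phosphatase of ERK and p38 that is known from activated leukocytes. It rose from 48.3 in BM_1, 43.7 in BM_3, 55.5 in BM_4 and 45.6 in BM_5 to 225 in SI_6, 233 in SI_7, 406 in SI_10 and 314 in SI_11. All bone marrow libraries lay within a narrow band, and the intestinal libraries fell into a lower pair, SI_6 and SI_7, and a higher pair. The ratio of means was 6.10 and the difference 2.48 ± 0.24 on the log2 scale (limma adjusted p = 8.60e-05). The remaining nuclear member, Dusp4 (ENSMUSG00000031530, chr8:34807297-34819894, plus strand), which dephosphorylates ERK and JNK, was rare in both tissues. Its normalised counts were 3.06 in BM_1, 6.52 in BM_3, 6.70 in BM_4 and 5.58 in BM_5 for bone marrow and 50.2 in SI_6, 42.99 in SI_7, 28.4 in SI_10 and 28.4 in SI_11 for small intestine. The groups did not overlap, and here SI_6 was the highest intestinal library. The difference of 2.21 ± 0.26 passed the test (limma adjusted p = 0.000290), and the log2 ratio of mean normalised counts, a scale that compresses low counts less, was 2.57.

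The cytoplasmic ERK phosphatases went in opposite directions. Dusp6 (ENSMUSG00000019960, chr10:99263231-99267489, plus strand), the classical feedback inhibitor of ERK, had normalised counts of 119.5 in BM_1, 74.3 in BM_3, 71.8 in BM_4 and 115 in BM_5, against 692 in SI_6, 778 in SI_7, 587 in SI_10 and 715 in SI_11. Every intestinal library was above every bone marrow library, and SI_10 was the lowest of them. The mean was 95.2 ± 25.7 in bone marrow against 693 ± 79.2 in small intestine, and the log2 difference of 2.85 ± 0.24 had a limma adjusted p of 3.95e-05. Dusp7 (ENSMUSG00000053716, chr9:106368632-106375724, plus strand), a close relative of Dusp6 that also dephosphorylates ERK in the cytoplasm, was the most abundant member per kilobase in bone marrow. It measured 288 in BM_1, 210.0 in BM_3, 236 in BM_4 and 179 in BM_5, and fell to 66.6 in SI_6, 45.8 in SI_7, 26.3 in SI_10 and 54.5 in SI_11. No intestinal library reached the lowest bone marrow library. The bone marrow mean of 228 ± 46.1 was 4.73 times the intestinal mean of 48.3 ± 16.99, and the log2 difference was -2.20 ± 0.30 (limma adjusted p = 0.000581). The ratio of Dusp6 to Dusp7 reads within a library, from which the size factor drops out, was -1.28 ± 0.46 on the log2 scale for bone marrow and 3.90 ± 0.47 for small intestine (mean ± SD, n = 4 each). It was below 0 in all 4 bone marrow libraries and above 0 in all 4 intestinal ones.

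The JNK and p38 phosphatases both rose, but to different extents. Dusp16 (ENSMUSG00000030203, chr6:134715468-134792625, minus strand) is a JNK-selective enzyme that shuttles between nucleus and cytoplasm, and it had the largest difference of all 10 members. Its normalised counts were 16.9 in BM_1, 26.1 in BM_3, 16.3 in BM_4 and 26.96 in BM_5 in the bone marrow group and 5296 in SI_6, 9418 in SI_7, 8745 in SI_10 and 9613 in SI_11 in the small intestine group. SI_6 was well below the other intestinal libraries but still far above all bone marrow libraries. The means were 21.5 ± 5.77 and 8268 ± 2016, a ratio of 384, and the log2 difference was 8.35 ± 0.27 (limma adjusted p = 4.44e-07). This placed Dusp16 at rank 48 of 38392 genes. Dusp10 (ENSMUSG00000039384, chr1:184013302-184075636, plus strand), which acts on p38 and JNK, measured 19.9 in BM_1, 31.3 in BM_3, 34.4 in BM_4 and 27.9 in BM_5, compared with 118 in SI_6, 190.0 in SI_7, 217 in SI_10 and 188 in SI_11. The lowest intestinal library, again SI_6, was above the highest bone marrow library. The log2 difference was 2.49 ± 0.26 with a limma adjusted p of 0.000133, and the ratio of means was 6.28. Reads of Dusp10 and Dusp16 were of similar number in bone marrow, with a log2 ratio within libraries of 0.40 ± 0.45, and Dusp16 dominated in small intestine, with -5.53 ± 0.15.

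The atypical members had the smallest differences and low counts. Dusp3 (ENSMUSG00000003518, chr11:101971143-101987013, minus strand), also called VHR, dephosphorylates ERK and JNK without being induced by them. It measured 9.19 in BM_1, 9.13 in BM_3, 6.70 in BM_4 and 5.58 in BM_5 in bone marrow, and 38.2 in SI_6, 34.7 in SI_7, 21.9 in SI_10 and 40.3 in SI_11 in small intestine. The groups were apart, with SI_10 the lowest intestinal library. The log2 difference was 1.74 ± 0.24 (limma adjusted p = 0.000687), which quantile normalisation lowered to 0.90 (limma adjusted p = 0.124). Its exons share 604 bases with the antisense gene Gm20659. Dusp22 (ENSMUSG00000069255, chr13:30659999-30711231, plus strand), known as a phosphatase that modulates JNK and T cell receptor signalling, had 0 in BM_1, 10.4 in BM_3, 4.78 in BM_4 and 5.58 in BM_5, and 12.01 in SI_6, 11.1 in SI_7, 15.3 in SI_10 and 10.7 in SI_11. The groups were separated only by the gap between BM_3 and SI_11, and BM_1 had no read. The log2 difference of 1.24 ± 0.56 had a 95% confidence interval from -0.03 to 2.52 and did not pass the test (limma adjusted p = 0.125). Without BM_1 the difference was 0.64. At this depth, a change of Dusp22 between no change and about the size of the Dusp10 change was not resolved.

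**Figure D2:**
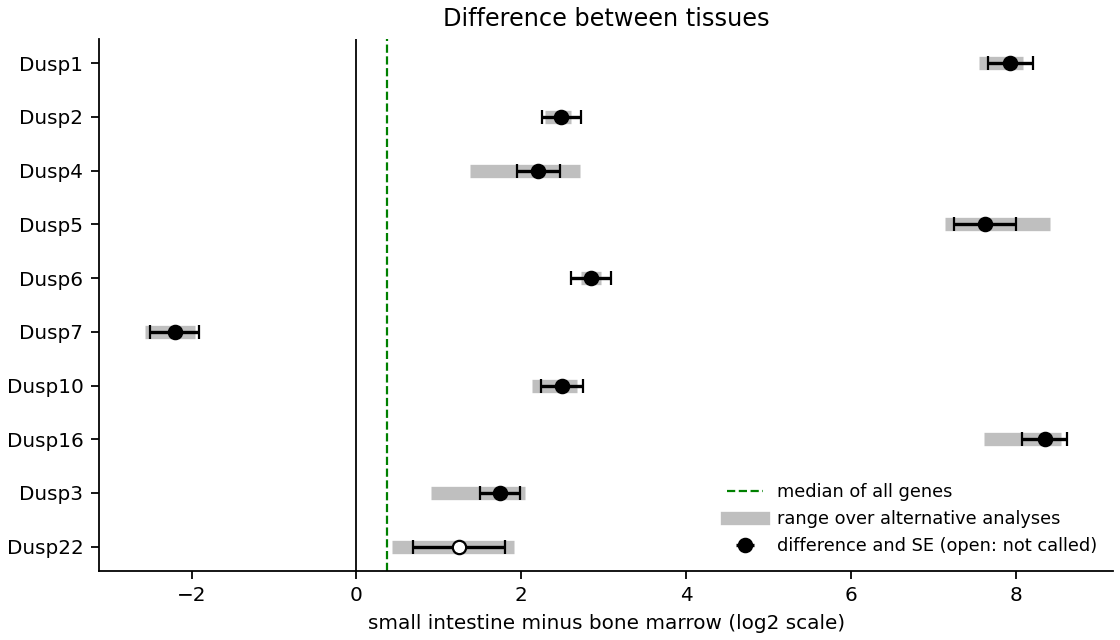
Difference between small intestine and bone marrow for each of the 10 phosphatase genes on the deposited log2 scale, with the limma SE as error bars (n = 4 libraries per tissue), an open point where the gene was not called, grey bars for the range over the alternative analyses and a dashed line at the median of all genes. Dusp16, Dusp1 and Dusp5 lie between 7.63 and 8.35, 5 members lie between 1.74 and 2.85, Dusp22 has an open point at 1.24, and Dusp7 lies at -2.20.

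The order of the family changed between tissues. Levels are compared between genes as normalised counts per kilobase of exons. Exons of all annotated transcripts of a gene were merged, so this length can exceed the main transcript. For Dusp1 it was 3.311 kilobases against 1990 bases. In bone marrow, Dusp7 was first with 68.1, followed by Dusp1 with 43.5, Dusp6 with 30.4, Dusp2 with 24.1 and Dusp10 with 9.33. Dusp16, Dusp4, Dusp5, Dusp3 and Dusp22 were at 1.02 to 2.76. The ranges over libraries separated only Dusp2 from Dusp10 and Dusp10 from Dusp16, and no other neighbours in this order. In small intestine, Dusp1 reached 10677 per kilobase, Dusp16 1060.3, Dusp5 552, Dusp6 221 and Dusp2 147. Then followed Dusp10 with 58.6, Dusp7 with 14.4, Dusp4 with 13.7, Dusp3 with 7.21 and Dusp22 with 2.40. Here all neighbours were separated by their ranges except Dusp6 from Dusp2 and Dusp7 from Dusp4.

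As a share of the members' summed level per kilobase, Dusp7 went from 36.7% ± 4.20 in bone marrow to 0.119% ± 0.0578 in small intestine, and Dusp1 from 23.3% ± 5.56 to 83.6% ± 1.77 (mean ± SD, n = 4 each). Dusp16 made up 1.53% ± 0.521 in bone marrow against 8.30% ± 1.55 in small intestine, and Dusp5 0.915% ± 0.682 and 4.36% ± 0.245. The intestinal pool was thus mostly Dusp1. Since Dusp1 takes most of that pool, a smaller share of another member there does not mean a lower level.

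**Figure D3:**
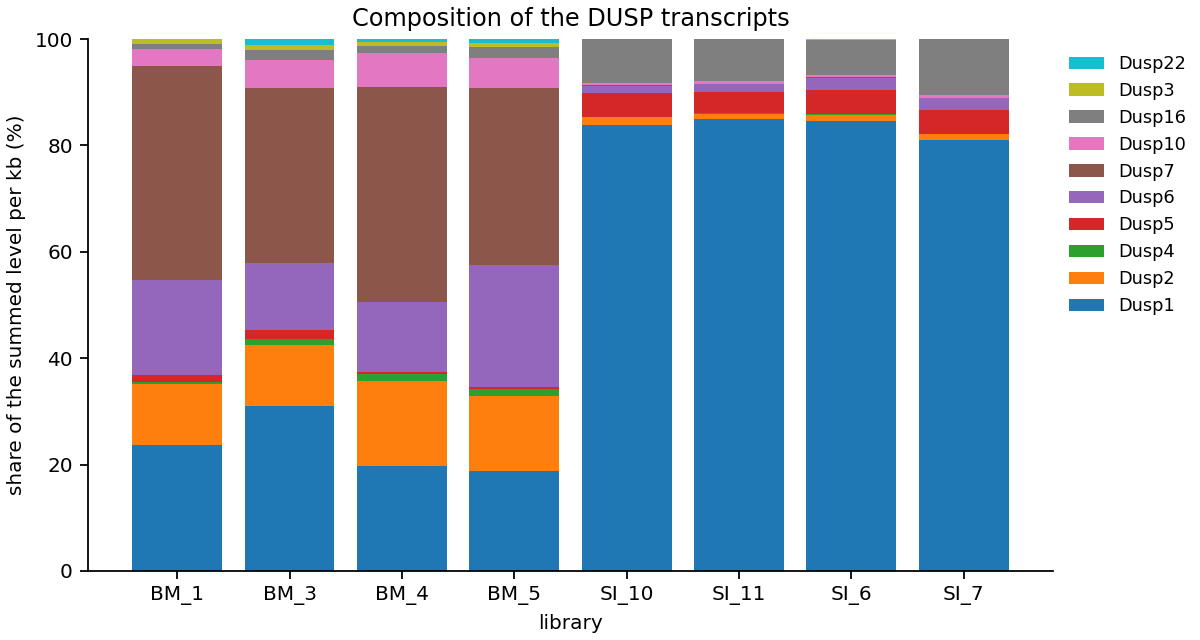
Share of each phosphatase gene in the summed normalised counts per kilobase of the 10 genes, in percent, as a stacked bar for each of the 8 libraries. Dusp7 and Dusp1 together make up most of the bone marrow bars, and Dusp1 fills 81.1% to 84.98% of the intestinal bars.

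Ratios within a library also separated members of the nuclear group. The log2 ratio of Dusp1 to Dusp2 reads was 1.52 ± 0.54 in bone marrow against 6.93 ± 0.26 in small intestine, and that of Dusp1 to Dusp4 was 4.62 ± 0.76 and 9.88 ± 0.69. For both pairs the tissues did not overlap. Dusp1 and Dusp5 kept a similar ratio, with 5.21 ± 0.84 in bone marrow against 4.68 ± 0.10 in small intestine, and the tissues overlapped, although the bone marrow value rests on 1 to 12 reads of Dusp5. The ratio of Dusp3 to Dusp22 was 1.23 ± 2.29 and 1.39 ± 0.61, with overlapping tissues.

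**Figure D4:**
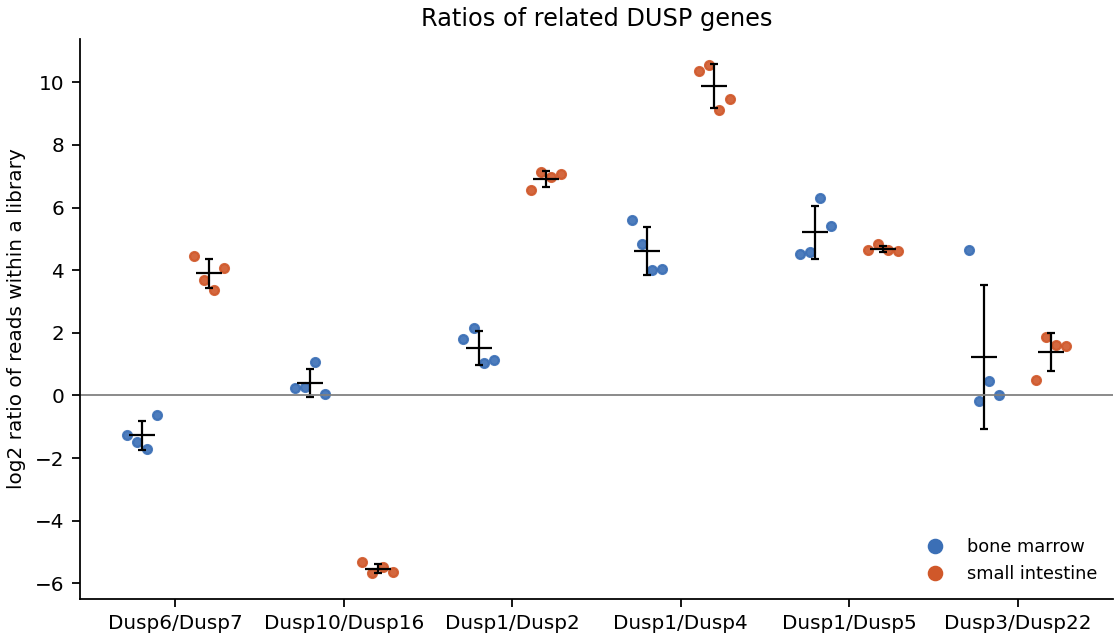
Log2 ratio of the reads of 6 pairs of phosphatase genes within a library, with 1 point per library and black bars for the mean ± SD of each tissue. The tissues are apart for Dusp6/Dusp7, Dusp10/Dusp16, Dusp1/Dusp2 and Dusp1/Dusp4 and overlap for Dusp1/Dusp5 and Dusp3/Dusp22.

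Among the intestinal libraries, SI_6 was the lowest for 5 of the 10 members (Dusp1, Dusp2, Dusp5, Dusp10 and Dusp16), and SI_10 for 4 (Dusp3, Dusp4, Dusp6 and Dusp7). SI_6 was also the library with the most epithelial and macrophage marker transcript, 18269.5 and 10519 normalised counts, and its eosinophil marker sum of 33399.6 was the lowest of the 4. Without SI_6, the log2 differences were 8.03 for Dusp1, 7.72 for Dusp5, 8.55 for Dusp16 and -2.37 for Dusp7, each larger in size than with it. Those of Dusp4 and Dusp3 were smaller, 2.07 instead of 2.21 and 1.67 instead of 1.74.

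Transcripts known to rise during warm enzymatic digestion also differed between the tissues. Of 20 such genes, with the DUSP genes left out, 17 were higher in small intestine and 3 lower, with a median difference of 4.86 on the log2 scale against 0.37 for all genes. Their summed normalised counts were 19279 to 21054 in bone marrow against 77858 to 98040.1 in small intestine. The AP-1 subunit Fosb had the largest difference, 8.89 ± 0.26, with 12.3 ± 5.31 in bone marrow against 7276 ± 934 in small intestine (limma adjusted p = 2.87e-07). Zfp36, whose protein promotes decay of AU-rich mRNAs, had the highest mean count of the list over all 8 libraries, though not in bone marrow, and rose by 5.88 ± 0.19 on this scale (limma adjusted p = 4.20e-07). The chaperone Hspa8 fell, with a difference of -1.45 ± 0.20 (limma adjusted p = 0.000593), and Hspb1, a small heat shock protein, was at 0 in the bone marrow libraries. The part of the digestion in the DUSP differences was not tested. Only intestinal cells were digested, so tissue and digestion changed together.

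MAP kinases are the substrates of the phosphatases. Beside the counts of the pathway lists stand the shares over all genes, 22.0% called higher and 12.9% called lower. Of 14 MAP kinase genes, 1 was higher in small intestine, 2 were lower and 11 did not pass the test, and their median difference was 0.16. Mapk14, which encodes p38 alpha, had the highest mean count over all 8 libraries, though not in small intestine, and fell from 2991 ± 182 to 944 ± 106 normalised counts (log2 difference -1.66 ± 0.18, limma adjusted p = 0.000153). Mapk3, encoding ERK1, did not pass the test, with 1644 ± 150.0 in bone marrow against 1722 ± 207 in small intestine and a difference of 0.06 ± 0.18 that changed sign under other scalings (limma adjusted p = 0.813). Mapk15, an atypical MAP kinase, was the higher gene, at 0.704 ± 0.893 in bone marrow against 9.59 ± 4.999 in small intestine (log2 difference 2.05 ± 0.47, limma adjusted p = 0.00921), and this call was lost under quantile normalisation. Mapk3 was named after its values were seen.

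Of 7 MAP kinase kinases, only the JNK kinase gene Map2k4 was called, with a difference of 0.77 ± 0.20 (limma adjusted p = 0.0168) that was lost when libraries were centred on their medians. Further upstream, 12 of 21 MAP kinase kinase kinases were higher and 1 lower, with a median of 1.0. The largest difference was that of Map3k21, a mixed lineage kinase, at 4.88 ± 0.66, and the fall was that of Map3k20, which senses ribosome stress, at -2.59 ± 0.25 (limma adjusted p = 0.000559 and 8.90e-05). Braf, a kinase of the ERK pathway with the highest mean count of the list over all 8 libraries but not in bone marrow, rose by 1.43 ± 0.20 to 7718 ± 1311 normalised counts (limma adjusted p = 0.000686). Of 15 genes of Ras proteins and their regulators, 6 were higher and 2 lower, with a median of 0.28. The exchange factor Rasgrp4 rose by 4.74 ± 0.22, and the exchange factor Rasgrp2 had a difference of -1.41 ± 0.19 (limma adjusted p = 2.22e-06 and 0.000550).

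Scaffold proteins hold these kinases together, and 8 of 10 of their genes were higher in small intestine and 0 lower, with a median of 1.79. Ksr1, the scaffold of RAF, MEK and ERK, rose by 2.87 ± 0.19, Iqgap1, with the highest mean count of the list, by 2.36 ± 0.19, and Lamtor3, which tethers MEK and ERK to late endosomes, by 0.75 ± 0.18 (limma adjusted p = 1.36e-05, 2.91e-05 and 0.0119). Of 11 protein kinases that MAP kinases activate, 4 were higher and 3 lower. Mapkapk2, the p38 target that stabilises cytokine mRNAs, had the highest mean count over all 8 libraries but not in bone marrow and rose by 0.95 ± 0.20, and Mknk2, which phosphorylates the translation factor eIF4E, had a difference of -1.03 ± 0.20 (limma adjusted p = 0.00519 and 0.00414). Rps6ka6, a member of the ribosomal S6 kinase family, had the largest difference, 2.30 ± 0.76, in groups that overlapped (limma adjusted p = 0.0449), and its call was lost when any library other than BM_5 was left out, with values of 1.93 to 2.91 over all 8 omissions.

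Other negative regulators of the pathway were near the shares over all genes (22.0% higher and 12.9% lower). Of 12 measured genes, 3 were higher, 2 lower and 7 not called, with a median of 0.07. The tyrosine phosphatases that bind MAP kinases were split. Ptpn7, with the highest mean count of the list, and Ptprr fell, with differences of -1.29 ± 0.18 and -1.82 ± 0.26 (limma adjusted p = 0.000645 and 0.000701). Ptpn5 was higher by 2.40 ± 0.62 in overlapping groups at low counts (limma adjusted p = 0.0161), and that call was lost without BM_1, BM_4, SI_10 or SI_7, with values of 2.11 to 2.93 over the 8 omissions. Of 16 further DUSP family genes, 4 were higher and 4 lower, with a median of 0.91. Dusp8, a JNK and p38 phosphatase, rose from 1.28 ± 1.20 to 48.1 ± 14.9 normalised counts (log2 difference 3.77 ± 0.37, limma adjusted p = 0.000102). Dusp23, a small atypical phosphatase, fell by 2.01 (limma adjusted p = 0.000693), and Dusp26 was at 0 in bone marrow. Dusp11, an RNA phosphatase and the one with the highest mean count, had 2115 ± 146 in bone marrow against 2594 ± 195 in small intestine and did not pass the test (log2 difference 0.29 ± 0.17, limma adjusted p = 0.224).

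**Figure D5:**
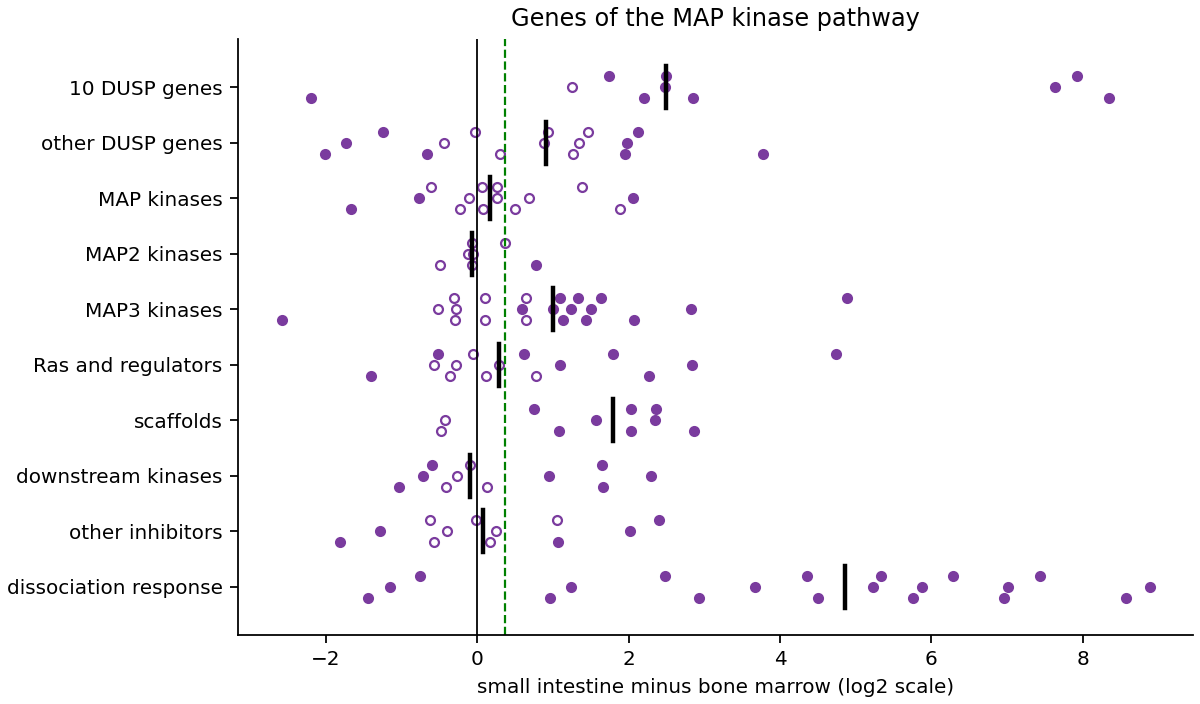
Differences between small intestine and bone marrow on the deposited log2 scale for the 10 members, the genes of each MAP kinase pathway list and the digestion-associated genes, with 1 point per gene (filled where called by limma, open where not), a black bar at the median of each list and a dashed line at the median of all genes. The 10 members have a median of 2.49, the scaffold genes of 1.79, the MAP kinases of 0.16 and all genes of 0.37.

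The patterns most like those of the extreme members were sought among 8740 protein-coding genes with a mean of at least 100 normalised counts, as the root mean square distance of centred log2 values over the 8 libraries. Nearest to Dusp16 were Il1rn, encoding the IL-1 receptor antagonist, at a distance of 0.159, the cystine transporter gene Slc7a11 at 0.196 and the receptor gene P2ry10 at 0.213. Il1rn went from 90.2 ± 17.4 to 29504 ± 4921 normalised counts. Nearest to Dusp7 were Kdelr2, which returns proteins to the endoplasmic reticulum, at 0.145, the nucleotide hydrolase gene Dctpp1 at 0.151 and the alanyl-tRNA synthetase gene Aars at 0.151. Distances of this kind rank genes by their tissue difference first. As reference genes, Gapdh had a difference of -1.04 ± 0.19 and Actb of 0.61 ± 0.19 (limma adjusted p = 0.00250 and 0.0409). The call of Actb was lost with median centring or quantile normalisation and without BM_1, BM_3 or BM_4.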

How the data were processed

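RNA-seq libraries of sorted eosinophils (4 from bone marrow, 4 from small intestine) were analysed. The authors aligned reads to GRCm38 with a public pipeline, and the values deposited by the authors are log2-like, made with the variance stabilisation of DESeq2. The aligner, how strand was set and how multi-mapping reads were handled were not given in the sources used here. Column names gave the tissue but not the single sample, so libraries are named by their columns.

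The transformation was inverted from its lowest value to give normalised counts. Multiplied by size factors of 0.721 to 1.53, 100% of values came out as whole reads (tolerance 0.05). Totals were 11508002 to 21289164 reads, which limits precision for Dusp3, Dusp4, Dusp5 and Dusp22 in bone marrow. P-values measure only the spread between these libraries, which may be in part technical.

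For the tissue comparison, limma 3.58.1 (R 4.3.3) was fitted to the deposited values of 38392 genes, with a constant prior, no filter, 2-sided tests and Benjamini-Hochberg adjustment (threshold 0.05). The study used a count model. Here limma was chosen because the deposited unit is log2, and the recovered reads served in an alternative. Differences are small intestine minus bone marrow. The scripts were tested on simulated data. Alternatives were voom on the recovered reads, a trended or robust prior, median centring, quantile normalisation, a filter at a mean of 10 reads, a test against a difference of 1, and leaving out each library. Ratios within a library used a pseudocount of 0.5 reads. Python 3.11.15, numpy 2.4.6, pandas 2.3.3 and matplotlib 3.10.9 were used otherwise. Gene positions and exon lengths came from GENCODE M21 and upstream sequences from RefSeq (GRCm38.p6). The window nearest the start was not printed because some annotated transcripts begin there.

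The members and lists were chosen with earlier results of these data known. Named were all members, and of each pathway list and the digestion list the extreme called genes and the most abundant gene. Of marker lists, the most abundant genes in each tissue and those at 0 were named. The nearest patterns of the extreme members, Gapdh and Actb were named as well. Siglecf, Ccr3, Il5ra, Epx, Prg3 and Elane were named after their values were seen. Protein sequences were not analysed here, and single values of some pathway genes are not reported here.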

Additional observations from a re-analysis of the deposited data

Results flagged for a closer look

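Dusp16 in the library SI_6 stood apart from the other small intestine libraries. Its normalised count of 5296 was the lowest of the 4, and its gap to the nearest of the others, divided by the range of the group, was 0.841, above Dixon's critical value for 4 samples. This was 1 of 20 groups examined (10 members in 2 tissues), and chance alone exceeds that value in about 1 of 20 groups. Without SI_6 the log2 difference of Dusp16 between the tissues was 8.55 instead of 8.35.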

How the results depend on the processing

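Of 159 member differences under alternatives, 156 passed their check. For fitted alternatives this was the same direction and the same side of the threshold. Only the log2 ratio of mean normalised counts was checked for direction and for size within the replicate spread. Sizes under fitted alternatives did shift. Dusp4 was at 1.38 instead of 2.21 under quantile normalisation, and Dusp5 at 8.41 instead of 7.63 with voom. The exceptions were Dusp3, at 0.90 under quantile normalisation (limma adjusted p = 0.124) and 1.74 against a difference of 1 log2 unit (limma adjusted p = 0.0568), and Dusp4, at 2.57 as a log2 ratio of mean normalised counts. Members called higher numbered 8 in all settings except these 2 tests of Dusp3, with 7, and 1 was called lower in all. Dusp22 had no value with the filter on low reads. Relative to the median of all genes, Dusp16 lay between 7.63 and 8.23 and Dusp7 between -3.19 and -2.26 over all settings. Against a difference of 1 log2 unit, 5076 genes were called (3460 higher, 1616 lower) instead of 13402, by the construction of that test. For the same reason, 34 instead of 73 genes were called in the pathway lists and the digestion list together. The 73 include all 20 genes of the digestion list. Leaving out 1 library gave 10982 to 14670 genes over the whole table and 57 to 79 genes of the pathway and digestion lists. Without 1 library, the difference of Dusp1 was 7.78 to 8.09, of Dusp5 7.35 to 7.87, of Dusp16 8.24 to 8.55, of Dusp7 -2.37 to -1.96 and of Dusp22 0.64 to 1.60. Of the other named genes, Dusp11 turned to -0.0464 under quantile normalisation, and Mapk3 to -0.0009 under median centring, -0.18 under quantile normalisation and -0.0118 to 0.12 without 1 library. The cause of these shifts was not tested. Depth limits members with few bone marrow reads, such as Dusp5 (1 to 12 per library), Dusp22 (0 to 16) and Dusp4 (4 to 10). No paired analysis was possible because bone marrow and small intestine columns share no replicate number.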

Other observations

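AU-rich pentamers (ATTTA) in the untranslated part after the coding sequence are a known feature of short-lived mRNAs, to which Zfp36 protein binds. In the main annotated transcript of each member, Dusp1, Dusp2 and Dusp3 held 4 of them, Dusp10 and Dusp16 held 3, Dusp4 and Dusp22 held 2, Dusp5 and Dusp6 held 1, and Dusp7 held 0. At least 4 were present in 3 of 10 members and in 25.1% of 20505 protein-coding genes, whose median was 1. Dusp7, the only member lower in small intestine, was also the only one without the pentamer, which is a description of 1 gene. The share of all genes without the pentamer was not determined, and a part of the pentamer in the differences was not tested. The main transcripts had 3 to 7 exons and lengths of 1617 bases (Dusp2) to 5104 bases (Dusp16).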
